A study of Mus musculus with 4 samples.

Results

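Retinoic acid is a small signalling molecule that embryos make from vitamin A. Rdh10 oxidises retinol to retinaldehyde, Dhrs3 turns retinaldehyde back into retinol, and Aldh1a2 oxidises retinaldehyde to retinoic acid in the early embryo. Cellular binding proteins (Crabp1, Crabp2) hold the product in the cytosol, Cyp26 enzymes break it down, and nuclear receptors such as Rarb switch on genes when it is bound. In mouse embryos at early somite stages Aldh1a2 is known from the somites and lateral mesoderm of the trunk, and retinoic acid from there patterns the posterior pharynx, the hindbrain and the inflow end of the heart.

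The genes described are 9 components of this pathway: Stra6, Rdh10, Dhrs3, Aldh1a2, Crabp1, Crabp2, Cyp26a1, Cyp26c1 and Rarb. All probe sets (the groups of array probes that report 1 transcript) that carried 1 of these names as their only gene symbol were taken, which gave 9 probe sets of 8 genes out of 45037 probe sets and 18193 named genes. Cyp26c1 had no probe set under its name and is not described further. Rdh10 had 2 probe sets and each of the others had 1. A probe set was kept for tests if its log2 intensity was above 5 on at least 2 of the 4 arrays, and 6 probe sets of 5 members (Rdh10, Aldh1a2, Crabp1, Crabp2 and Cyp26a1) were kept, as were 13288 in the whole series.

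The study compared 2 samples of foregut endoderm with 2 samples that combined heart mesoderm with head mesoderm and ectoderm, in ARC/s mouse embryos at embryonic day 8.5 with 4 to 5 somites (3 to 5 in another label). Each sample pooled 15 to 20 pieces of tissue. No allele was named, and no treatment other than the enzyme digestion described next. Experiment 1 holds the pair of tissues separated by hand, and experiment 2 the pair that was first digested with trypsin and pancreatin, as the treatment protocol states, so effects of the experiment and of the enzyme step cannot be told apart. The series' design text mentions the enzymes for the dissection in general, so the difference in dissection rests on that protocol alone. In bulk tissue, fewer cells of a type and less RNA per cell cannot be told apart either.

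The labelled tissues were checked against marker genes before the pathway was read. Of 11 foregut endoderm markers, 10 were above log2 5 on each endoderm array, against 4 and 6 in mesoderm and ectoderm 1 and 2. That includes foregut endoderm 2, which 1 of its description fields calls ectoderm. Of 12 anterior neural plate markers, 4 were above this level on each endoderm array, against 10 on each mesoderm and ectoderm array. Heart muscle genes did not follow the labels. Of 13 heart muscle markers, 12 and 5 were above log2 5 in foregut endoderm 1 and 2, against 0 in mesoderm and ectoderm 1, which is labelled as holding heart mesoderm, and 13 in mesoderm and ectoderm 2. The log2 of their summed intensity was 13.87 and 10.32 in foregut endoderm 1 and 2, against 7.05 and 16.84 in mesoderm and ectoderm 1 and 2. Endothelial markers split in the same way, with 5 and 0 of 8 above log2 5 in foregut endoderm 1 and 2, against 1 and 5 in mesoderm and ectoderm 1 and 2. Each array's value is therefore given for every gene.

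**Figure D1:**
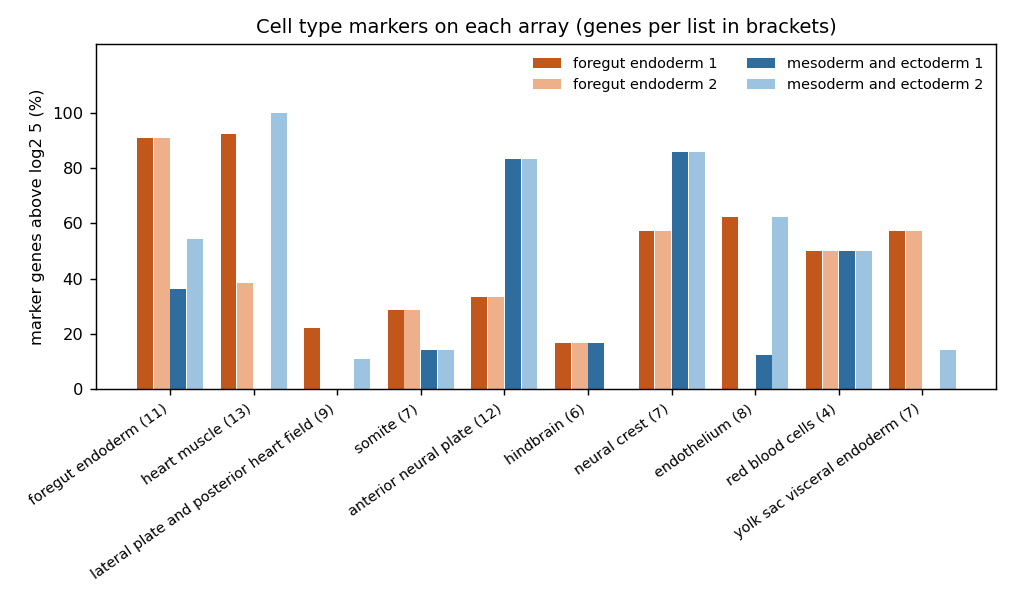
Share of marker genes above log2 5 (vertical axis, percent) for 10 cell type lists (horizontal axis, number of genes on the array in brackets), with 1 bar for each array. Endoderm and neural plate lists separate the tissues in both experiments, whereas heart muscle markers are at 0 of 13 in mesoderm and ectoderm 1 and at 12 of 13 in foregut endoderm 1.

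Among the kept probe sets, Aldh1a2 and Crabp2 lay at least 2-fold lower and Cyp26a1 at least 2-fold higher in foregut endoderm in both experiments. Rdh10 and Crabp1 had opposite signs in the 2 experiments. Stra6, Dhrs3 and Rarb stayed below log2 5 on all 4 arrays. Of all kept probe sets in the series, 3.57% met this mark on the higher side and 1% on the lower side, and 40.5% had opposite signs of any size. No member went opposite ways by 2-fold or more in both experiments, against 1.6% of kept probe sets that were higher first and 0.467% that were lower first. None of the 6 probe sets passed the test of the tissue difference over all kept probe sets, fitted without the pairing by experiment (limma, adjusted p = 1 for each). That test called 0 of 13288 in either direction (0%), and the unadjusted p was under 0.05 for 395 on the higher side (2.97%) and 105 on the lower (0.79%), with 2 arrays per tissue.

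**Figure D2:**
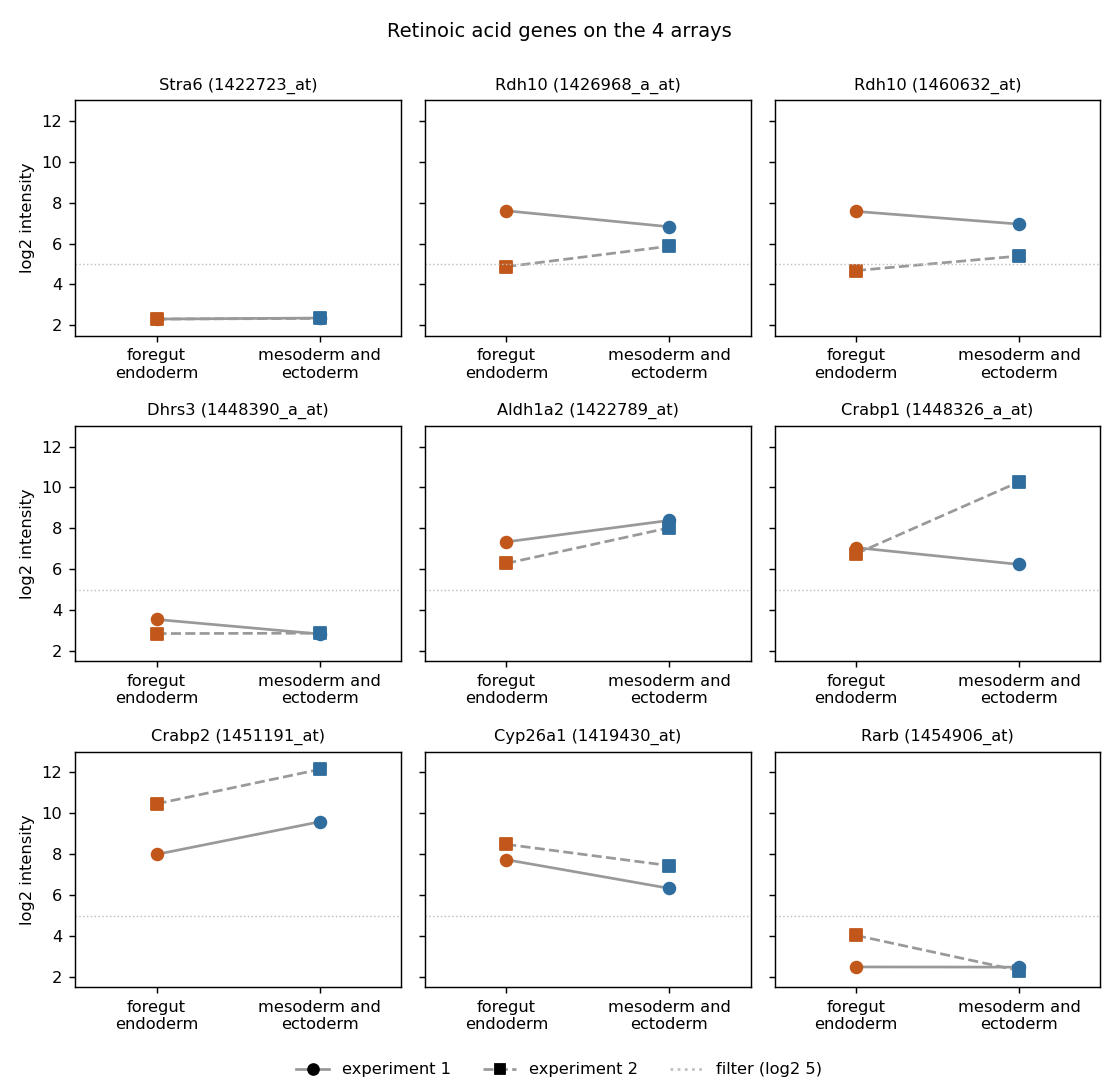
Log2 intensity (vertical axis) of the 9 probe sets in foregut endoderm (left of each panel) and in mesoderm and ectoderm (right), with circles and solid lines for experiment 1, squares and dashed lines for experiment 2, and a dotted line at the filter of log2 5. Aldh1a2 and Crabp2 slope upwards and Cyp26a1 downwards in both experiments, the lines of Rdh10 and Crabp1 run opposite ways, and Stra6, Dhrs3 and Rarb stay under the dotted line.

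**Figure D3:**
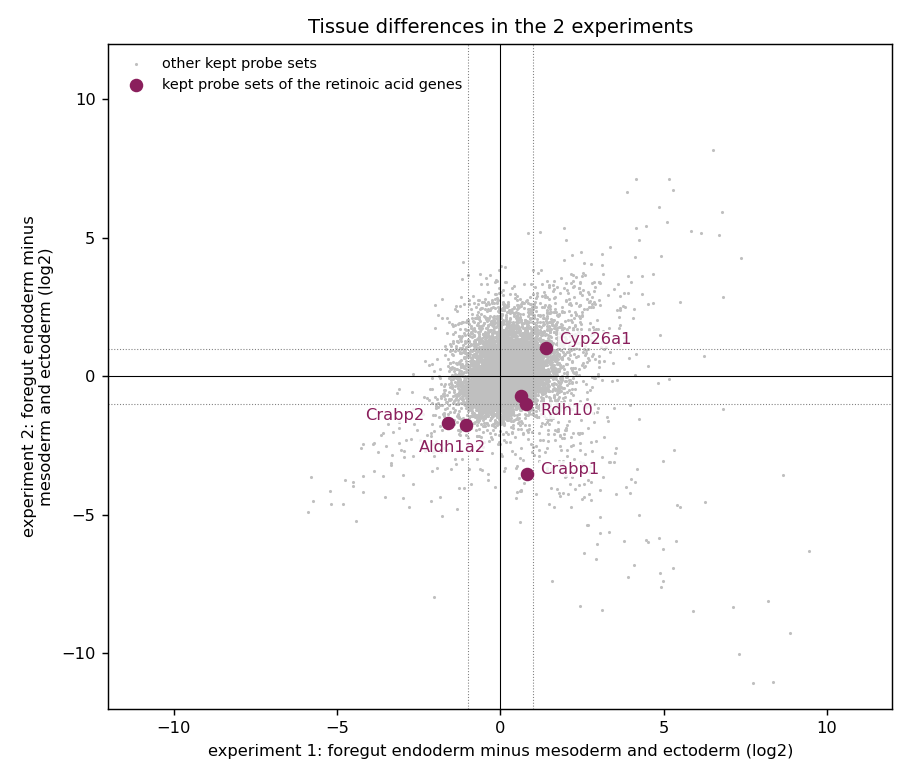
Difference in log2 intensity, foregut endoderm minus mesoderm and ectoderm, in experiment 1 (horizontal axis) and experiment 2 (vertical axis) for the 13288 kept probe sets, with the 6 of the retinoic acid genes enlarged and dotted lines at 2-fold. Cyp26a1 lies at 1.41 and 1.04, Aldh1a2 at -1.06 and -1.74, Crabp2 at -1.60 and -1.69, and Crabp1 at 0.83 and -3.51.

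Stra6, the cell surface receptor that takes up retinol from its plasma carrier, was at the floor of the arrays, meaning within 0.1 log2 units of an array's lowest value. Its log2 intensity was 2.31 on both endoderm arrays, against 2.36 and 2.34 in mesoderm and ectoderm 1 and 2. At that level no difference could be detected, and absence of the transcript is not shown.

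Rdh10, whose product carries out the first and rate-limiting oxidation of retinol in the embryo, gave the same picture with both of its probe sets. The first was at 7.60 and 4.87 in foregut endoderm 1 and 2, against 6.82 and 5.87 in mesoderm and ectoderm 1 and 2. The second was at 7.57 and 4.68 in foregut endoderm 1 and 2, against 6.95 and 5.39 in mesoderm and ectoderm 1 and 2. The samples of experiment 1 were thus the higher pair, and the endoderm arrays spanned the range of the others. Endoderm minus mesoderm and ectoderm was 0.78 in experiment 1 and -1.0 in experiment 2 for the first probe set, and 0.62 and -0.71 for the second. The mean differences of -0.11 ± 1.11 and -0.05 ± 1.24 (SE from limma) were far smaller than their errors. Foregut endoderm 1, where Rdh10 was highest, also held 12 of 13 heart muscle markers above log2 5, but mesoderm and ectoderm 2, with 13 of 13, was below both arrays of experiment 1. The part of these cells in the Rdh10 values was not tested.

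Dhrs3, the reductase that returns retinaldehyde to retinol, was dim throughout, with a log2 intensity of 3.55 and 2.86 in foregut endoderm 1 and 2, against 2.84 and 2.88 in mesoderm and ectoderm 1 and 2. Foregut endoderm 1 lay 1.30 above that array's lowest value, and the other 3 arrays lay 0.56 to 0.60 above theirs. The gene was below the filter and was not tested.

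Aldh1a2, the main retinoic acid synthesising enzyme of the early embryo, was lower in foregut endoderm. It read, in log2 intensity, 7.34 and 6.29 in foregut endoderm 1 and 2, against 8.39 and 8.03 in mesoderm and ectoderm 1 and 2. Both endoderm arrays lay below both others, which held for 9.05% of the kept probe sets. Foregut endoderm averaged 6.82 ± 0.74 and mesoderm and ectoderm 8.21 ± 0.26 (SD, n = 2 each). The difference of -1.40 ± 0.51 (SE) is 2.63-fold, made up of 2.08-fold in experiment 1 and 3.33-fold in experiment 2. With an offset of 16 added before log2, the experiments gave -0.99 and -1.55, so the first fell just short of 2-fold. At least as large a deficit in both experiments was seen for 0.602% of the kept probe sets. Leaving out each array in turn kept the difference between -1.92 and -0.87. With a block on the replicate number, which pairs the arrays by experiment, the SE was 0.30 (limma, unadjusted p = 0.0193, adjusted p = 0.484). Under that block 2.69% of kept probe sets had an unadjusted p below 0.05 on the lower side.

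The higher level of Aldh1a2 outside the endoderm was nearly alike on the arrays without and with heart muscle: 8.39 in mesoderm and ectoderm 1, with 0 of 13 heart markers above log2 5, and 8.03 in mesoderm and ectoderm 2, with 13 of 13. Of 7 somite markers, 2 were above log2 5 on each endoderm array and 1 on each mesoderm and ectoderm array, and those above it were Foxc1 on all 4 arrays (8.21 and 6.29 in foregut endoderm 1 and 2, against 6.41 and 5.51 in mesoderm and ectoderm 1 and 2), Foxc2 in foregut endoderm 1 (6.92) and Pax1 in foregut endoderm 2 (5.18). Meox1, Meox2, Tcf15 and Uncx were below log2 5 on all 4. Of 9 lateral plate and posterior heart field markers, 2 and 0 were above it in foregut endoderm 1 and 2, against 0 and 1 in mesoderm and ectoderm 1 and 2, namely Gata6 at 5.86 in foregut endoderm 1, and Hand2 at 9.19 in foregut endoderm 1, against 8.67 in mesoderm and ectoderm 2. Foxf1, Osr1, Tbx5, Hand1, Tbx18, Wt1 and Gata4 were below it everywhere. Mesoderm and ectoderm 1 and 2 also came from different experiments, and the part of these cell types in the Aldh1a2 values was not tested. The other retinaldehyde dehydrogenases, Aldh1a1 and Aldh1a3, were below the filter, with no probe set above 3.23 on any array.

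Crabp2, which carries retinoic acid to its nuclear receptors, was lower in foregut endoderm by nearly the same amount in both experiments. Log2 intensities were 7.99 and 10.46 in foregut endoderm 1 and 2, against 9.58 and 12.14 in mesoderm and ectoderm 1 and 2. The tissues overlap as groups, because both arrays of experiment 2 were brighter than their counterparts in experiment 1. Within the experiments endoderm was 3.02-fold and 3.22-fold lower, and 0.512% of the kept probe sets were at least as far lower in both. The mean difference was -1.64 ± 1.34 (SE), and a block on the replicate number, which takes out the shift between the experiments, brought the SE to 0.23 (limma, unadjusted p = 0.0057, adjusted p = 0.41). Under the block the unadjusted p was below 0.05 for 7.28% of kept probe sets on the higher side and 2.69% on the lower, and 0 passed after adjustment (0%).

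Crabp1, the related binding protein of hindbrain and neural crest, behaved differently. It was at a log2 intensity of 7.06 and 6.76 in foregut endoderm 1 and 2, against 6.24 and 10.27 in mesoderm and ectoderm 1 and 2. One array, mesoderm and ectoderm 2, stood far above the other 3. Endoderm was 1.77-fold higher in experiment 1 and 11.4-fold lower in experiment 2, and the mean difference of -1.34 ± 1.52 (SE) turned to 0.67 without mesoderm and ectoderm 2. That array was also the one with all 13 heart muscle markers above log2 5 and with 5 of 8 endothelial markers. Foregut endoderm 1, with 12 and 5 of these markers, had Crabp1 at 7.06. Neural crest markers were above log2 5 for 4 of 7 genes on each endoderm array and for 6 of 7 on each mesoderm and ectoderm array. The log2 of their summed intensity was 10.16 and 8.11 in foregut endoderm 1 and 2, against 11.48 and 11.01 in mesoderm and ectoderm 1 and 2. The part of these cell types in the Crabp1 value was not tested.

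Cyp26a1, the cytochrome P450 that clears retinoic acid, was the member with the higher level in foregut endoderm. It was at 7.73 and 8.48 in foregut endoderm 1 and 2, against 6.33 and 7.44 in mesoderm and ectoderm 1 and 2. Both endoderm arrays lay above both others, which held for 16.4% of the kept probe sets, although foregut endoderm 1 (7.73) and mesoderm and ectoderm 2 (7.44) were close. Foregut endoderm averaged 8.11 ± 0.53 and mesoderm and ectoderm 6.88 ± 0.79 (SD, n = 2 each), a difference of 1.22 ± 0.58 (SE) or 2.33-fold. It was 2.65-fold in experiment 1 and 2.05-fold in experiment 2, and 2.39% of the kept probe sets were at least as far higher in both. Under quantile normalization the values were 1.18 and 0.93, and under median centring 1.16 and 0.92, so the second fell short of 2-fold there. Its direction held with each array left out in turn, with differences of 0.66 to 1.78. A block on the replicate number brought the SE to 0.25 (limma, unadjusted p = 0.0167, adjusted p = 0.481). Under that block 7.28% of kept probe sets had an unadjusted p below 0.05 on the higher side.

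Rarb, a receptor gene that retinoic acid itself induces, was dim on 3 arrays. Its log2 intensity was 2.49 and 4.03 in foregut endoderm 1 and 2, against 2.48 and 2.31 in mesoderm and ectoderm 1 and 2. Foregut endoderm 2 lay 1.76 above that array's lowest value, and the other arrays lay 0.02 to 0.24 above theirs. It stayed below the filter and was not tested.

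Cyp26a1 and Rarb are both known as direct targets of the retinoic acid receptors, which bind repeats of a short half-site. The stretches of 110 bases just before their start sites are shown because both hold such a repeat, printed 5′ to 3′ on the strand of the gene with the repeat in capitals (RefSeq, GRCm38.p6). Cyp26a1 is at chr19:37697698-37697807 on the plus strand and Rarb at chr14:16575477-16575586 on the minus strand.
Cyp26a1: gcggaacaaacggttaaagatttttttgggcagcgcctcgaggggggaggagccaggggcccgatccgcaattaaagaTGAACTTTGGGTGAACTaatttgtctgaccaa
Rarb: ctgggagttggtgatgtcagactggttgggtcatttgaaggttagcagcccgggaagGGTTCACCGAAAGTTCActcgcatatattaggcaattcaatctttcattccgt

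The search took 4 half-sites (AGGTCA, then AGTTCA, then GGTTCA, then GGGTCA) in direct repeat with 5 bases between them, on both strands, in windows of 250 bases before to 50 after each start. In Rarb the repeat lies on the strand of the gene, at positions -53 to -37 counted from the start site. In Cyp26a1 it lies on the opposite strand, at positions -32 to -16, where it reads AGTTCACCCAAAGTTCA. Of the members, 7 had a window (12 windows in all, none for Rdh10 or Crabp2), and Cyp26a1 and Rarb held a match. Among all genes with a window 31 of 27025 did, these 2 included, in 32 of 32851 windows (0.0974%). Both genes are known targets and the half-sites searched include those of their repeats, so the matches are no test of the members. The same half-sites with 2 bases between them matched in none of the members' windows, against 0.268% of all. With 12 windows, finding none cannot tell the members apart from that share. A match is a description of the letters, and binding was not measured.

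The other genes of the pathway were read from lists by role, with the probe set of highest mean kept for each gene. Of 31 further genes for carriage, interconversion, synthesis, binding, breakdown, receptors and cofactors, 27 were on the array and 16 were kept. Of these, 2 were at least 2-fold higher in foregut endoderm in both experiments, 0 were lower and 0 went opposite ways by 2-fold or more. Of all 7802 kept genes, 3.54% met this mark on the higher side, 1.24% on the lower side, and 1.96% and 0.0641% went opposite ways by that much, higher first and lower first. The median difference over the 16 was 0.37 in experiment 1 and 0.26 in experiment 2, beside 0.12 and 0.03 over all kept probe sets. None passed the test (limma).

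The 2 genes were both plasma carriers, Rbp4, which binds retinol, and Ttr, the transthyretin that travels with it. Rbp4 was at 5.43 and 8.21 in foregut endoderm 1 and 2, against 3.94 and 4.91 in mesoderm and ectoderm 1 and 2. It passed the filter through the 2 endoderm arrays alone, so its count as higher is not independent of the filter. With an offset of 16 added before log2, its differences were 0.91 and 2.76 in experiments 1 and 2, so the first fell short of 2-fold. Ttr was at 9.76 and 12.13 in foregut endoderm 1 and 2, against 3.06 and 7.03 in mesoderm and ectoderm 1 and 2. Ttr was higher in endoderm within each experiment with all 4 of its probe sets. The dimmest of them was below the filter and differed little in experiment 1 (3.21 in foregut endoderm against 2.87). Both are also made by yolk sac visceral endoderm, and of 7 markers of that tissue, these 2 included, 4 were above log2 5 on each endoderm array, against 0 and 1 in mesoderm and ectoderm 1 and 2. The other markers above it there were Afp, a fetal plasma protein, at 8.48 and 9.63 in foregut endoderm 1 and 2, against 3.38 and 4.05 in mesoderm and ectoderm 1 and 2, and Mttp, a lipid transfer protein, at 6.10 and 6.13, against 4.54 and 4.84. Apob, Apoa4 and Apom were below log2 5 on all 4 arrays. The part of yolk sac cells in the Rbp4 and Ttr values was not tested.

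Receptors other than Rarb showed small differences. Rxrb, a shared partner of many nuclear receptors, was at 7.90 and 8.26 in foregut endoderm 1 and 2, against 7.45 and 7.44 in mesoderm and ectoderm 1 and 2. Rxra was at 6.75 and 6.89 in foregut endoderm 1 and 2, against 6.40 and 6.25 in mesoderm and ectoderm 1 and 2. Both were higher in endoderm in each experiment, by less than 2-fold. Rarg, the receptor of undifferentiated epithelia and mesenchyme, was above the filter in experiment 2 only, at 5.64 in foregut endoderm against 5.32 in mesoderm and ectoderm. Rara and Rxrg were below the filter on all 4 arrays.

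Genes that retinoic acid is known to induce lay on both sides. Of 13 listed, 10 were on the array and 5 were kept, of which 2 were at least 2-fold higher and 1 at least 2-fold lower in foregut endoderm in both experiments. Of all kept genes, 3.54% and 1.24% met these marks. The count depends on the probe set taken. Another kept probe set of Meis1 (1.53 and 1.05 in experiments 1 and 2) and of Nr2f2 (1.57 and 1.14) also met the higher mark, and another of Meis2 (0.35 and 3.19) did not. Tgm2, a transglutaminase, was at 10.36 and 11.05 in foregut endoderm 1 and 2, against 6.59 and 8.04 in mesoderm and ectoderm 1 and 2. Meis2, a homeobox cofactor of Hox proteins, was at 12.14 and 11.99 in foregut endoderm 1 and 2, against 10.70 and 10.77 in mesoderm and ectoderm 1 and 2.

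Nr2f1, an orphan receptor of neural tissue and mesenchyme, ran the other way. It was at 8.79 and 2.27 in foregut endoderm 1 and 2, against 10.81 and 10.24 in mesoderm and ectoderm 1 and 2. Foregut endoderm 2 was at the array floor, so the difference of -7.97 in experiment 2 is a bound in size. Tbx1, a pharyngeal factor that retinoic acid is known to restrain, was at 6.78 and 7.55 in foregut endoderm 1 and 2, against 3.76 and 4.16 in mesoderm and ectoderm 1 and 2. Like Rbp4, it passed the filter through the 2 endoderm arrays alone. Hoxb1, a direct target in hindbrain and foregut, was above log2 5 on 1 array only, with 3.25 and 5.36 in foregut endoderm 1 and 2, against 2.46 and 2.28 in mesoderm and ectoderm 1 and 2. Foregut endoderm 2 thus had the highest Hoxb1, Rarb and Cyp26a1, of which Hoxb1 and Rarb did not pass the filter. Tgm2 was also highest there. The other kept genes of the induced list, by their probe set of highest mean, were lower there than in foregut endoderm 1. These were Nr2f1 (2.27 against 8.79), Meis1 (8.55 against 9.38), Meis2 (11.99 against 12.14) and Nr2f2 (7.55 against 8.44). A shared response was not tested.

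**Figure D4:**
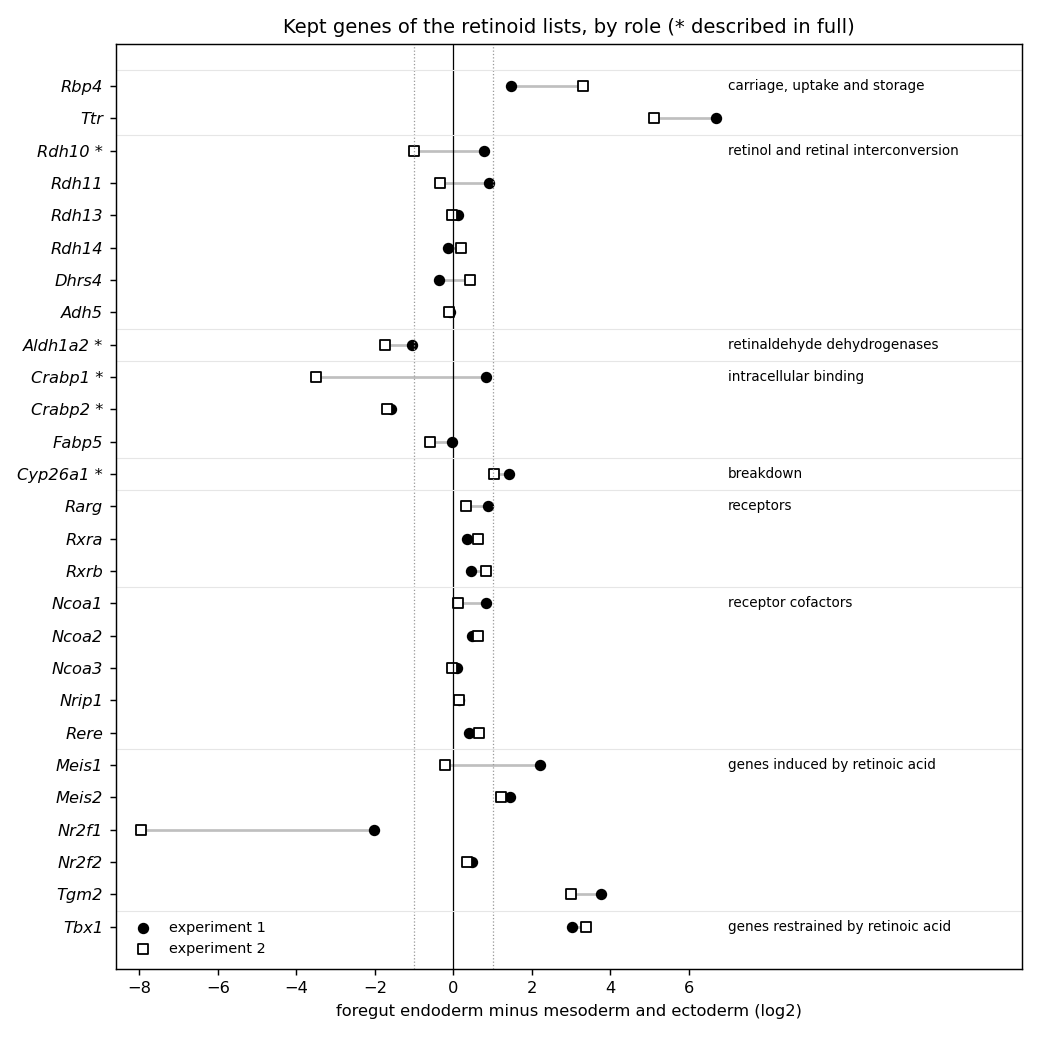
Difference in log2 intensity, foregut endoderm minus mesoderm and ectoderm (horizontal axis), in experiment 1 (filled circles) and experiment 2 (open squares) for the 27 kept genes of the retinoid lists, grouped by role, with dotted lines at 2-fold. Ttr, Rbp4, Tgm2, Meis2, Tbx1 and Cyp26a1 lie right of the 2-fold line in both experiments, and Aldh1a2, Crabp2 and Nr2f1 lie left of it.

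Crabp2 differed more between the experiments than between the tissues, and Rdh10 did so in foregut endoderm. Crabp2 was 5.54-fold higher in experiment 2 than in experiment 1 in foregut endoderm and 5.89-fold higher in mesoderm and ectoderm. The first Rdh10 probe set was 6.62-fold lower in experiment 2 in foregut endoderm and 1.94-fold lower in mesoderm and ectoderm, and the second 7.38-fold and 2.94-fold lower. Of the kept probe sets, 11.4% were at least 2-fold higher and 7.19% at least 2-fold lower in experiment 2 in both tissues. With tissue as a term, experiment 2 minus experiment 1 was 2.51 ± 0.22 (SE) for Crabp2 (limma, adjusted p = 0.097) and, for the first and second Rdh10 probe sets, -1.84 ± 0.56 (limma, adjusted p = 0.164) and -2.22 ± 0.45 (limma, adjusted p = 0.114). This comparison called 0 of 13288 probe sets (0%), with 3996 (30.1%) at an unadjusted p under 0.05. The Crabp2 value passed under quantile normalization and with a filter at log2 7 (limma, adjusted p = 0.044 each) and under median centring (limma, adjusted p = 0.049). These settings called 878 of 13288, 673 of 8423 and 423 of 13288 probe sets in turn, so the pass was not particular to Crabp2. It did not pass with an offset of 16 (limma, adjusted p = 0.088) or without the filter (limma, adjusted p = 0.185).

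Genes whose profiles over the 4 arrays were closest to those of the members were found by the distance between log2 profiles after each was centred on its own mean. Nearest to Cyp26a1 were Pxn, Itgav and Btg1, at distances of 0.16, 0.20 and 0.21 log2 units. Nearest to Aldh1a2 were Cpe, Mettl8 and Snhg3 at 0.25 to 0.28, and nearest to Rdh10 were Zfp36l2, Rpgrip1 and Lrrc41 at 0.28 to 0.29. For Crabp2 they were Mrps28 at 0.32, Znrd1 at 0.59 and Hacd2 at 0.63. Nearest to Crabp1 were Lgals1 at 0.59, Ecscr at 0.68 and Plac8 at 1.30. These distances rest on 4 arrays and are given as a description.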

How the data were processed

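RNA from 4 pooled samples underwent 2 amplification rounds before it went onto MOE430 mouse arrays of Affymetrix, as the design text states. What the authors deposited is 1 normalized intensity per probe set; their design text names GC-RMA, run with GenePattern software, and the submitters' processing notes name RMA, both without versions. The scale was read from the values (4.753 to 75547, medians 5.711 to 6.141), which are linear, and log2 was taken here. Between 41.4% and 44.8% of an array's probe sets lay at its floor. Gene symbols came from GEO's platform annotation (1 symbol for 34945 probe sets, several for 932, none for 9160), and all 8 members on the array matched a RefSeq gene. After 64 control probe sets were left out, 13288 passed the filter.

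The tissue difference (foregut endoderm minus mesoderm and ectoderm) was fitted with no block in limma (version 3.58.1, R 4.3.3), using lmFit, eBayes and two-sided p-values adjusted by Benjamini-Hochberg over all kept probe sets at a threshold of 0.05. The replicate numbers pair the samples, since the labels tie each number to a way of dissection; experiment 2 minus experiment 1 correlated between the tissues (r = 0.56 across probe sets). The code of the fits was checked on simulated data with known changes. The simulated noise was smaller than the spread of some members here, so that check does not measure the precision of these arrays. Differences of at least 2-fold within each experiment were counted without a test. Named were all members, the listed retinoid genes at least 2-fold apart in both experiments, and the 3 genes nearest each kept member's profile. Others named (receptors, Hoxb1, Meis1, Nr2f2, markers, hindbrain genes, Fabp5) were chosen after their values were seen. The members and lists were chosen with earlier results of these data known. Alternatives were scaling, filter, an offset of 16, the block and leaving out arrays. Only 2 arrays per tissue limit the precision.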

Additional observations from a re-analysis of the deposited data

Results flagged for a closer look

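The tissue difference (foregut endoderm minus mesoderm and ectoderm, log2) had opposite signs in the experiments for Rdh10 and Crabp1. Rdh10 was at 0.78 in experiment 1 and -1.0 in experiment 2 with its first probe set, and at 0.62 and -0.71 with its second. Crabp1 was at 0.83 in experiment 1 and -3.51 in experiment 2. With 1 array per tissue and experiment these contrasts were not tested against each other, and opposite signs of any size were found for 40.5% of the kept probe sets.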

How the results depend on the processing

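Aldh1a2, Crabp2 and Cyp26a1 kept their direction under all 10 alternatives each, at -1.92 to -0.87, -2.92 to -0.36 and 0.66 to 1.78 log2 units, and no member passed limma's test of the tissues under any of them (lowest adjusted p 0.41). With each array left out in turn, Rdh10 ran from -1.47 to 1.25 (first probe set) and from -1.49 to 1.40 (second probe set), and Crabp1 from -3.36 to 0.67; with the offset of 16, Rdh10 (second probe set) was at 0.04. The replicate block changed no call, with 0 probe sets called by limma (lowest adjusted p 0.351, 1326 at an unadjusted p under 0.05). Of the 3 probe sets of members at least 2-fold apart in both experiments, 1 (Crabp2) was left with the offset, where Aldh1a2 was at -0.99 in experiment 1 and Cyp26a1 at 0.97 in experiment 2, and leaving out arrays (chosen after seeing the data, the lone array serving both experiments) gave 1 to 2, the 1 without foregut endoderm 2. In the whole series, probe sets higher in both numbered 474 (284 with a filter at log2 7; 616 to 1097 without single arrays, the highest without mesoderm and ectoderm 1), and those lower in both 133 (211 with median centring, 69 with that filter; 204 to 525, the highest without mesoderm and ectoderm 1). Quantile normalization gave 367 higher and 194 lower, median centring 347 and 211. Those at least 2-fold higher first and lower second numbered 213 (111 with that filter; 62 to 232, with 62 and 64 without mesoderm and ectoderm 2 and 1), and the reverse 62 (96 with median centring, 15 with that filter, 26 with the offset; 21 to 187, lowest without mesoderm and ectoderm 1 and highest without foregut endoderm 1). The comparison of experiments called 878 under quantile normalization, 423 under median centring and 673 with that filter. The cause was not tested; a stricter filter tests fewer probe sets. Values below about log2 5 limit Stra6, Dhrs3 and Rarb.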

Other observations

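Of 6 hindbrain markers on the array, 1 was above log2 5 on each foregut endoderm array, against 1 and 0 in mesoderm and ectoderm 1 and 2, and it was a different gene on each of these 3 arrays. Egr2, a zinc finger factor of the hindbrain, was at 7.65 and 2.27 in foregut endoderm 1 and 2, against 2.28 on both mesoderm and ectoderm arrays (first probe set), and its other probe set was at 6.62 and 2.63, against 2.64 and 2.65. Gbx2, a homeobox factor of the anterior hindbrain, was at 4.25 and 5.52 in foregut endoderm 1 and 2, against 2.60 and 2.61 in mesoderm and ectoderm 1 and 2. En2, a homeobox factor of the midbrain and hindbrain border, ran the other way, at 3.04 and 2.96 in foregut endoderm 1 and 2, against 7.97 and 3.85 in mesoderm and ectoderm 1 and 2. Hoxa2 was at 4.51 and 2.27 in foregut endoderm 1 and 2, against 2.28 and 2.29 in mesoderm and ectoderm 1 and 2. Hoxb2 was at the floor on all 4 arrays and no probe set of Fgf3 was above 3.43. None of the 6 passed the filter, so none was tested.

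Fabp5, a fatty acid binding protein that can also bind retinoic acid, gave different pictures with its 2 probe sets. The brighter was at 13.47 and 13.26 in foregut endoderm 1 and 2, against 13.50 and 13.86 in mesoderm and ectoderm 1 and 2. The dimmer was at 7.10 and 9.74 in foregut endoderm 1 and 2, against 7.92 and 11.44 in mesoderm and ectoderm 1 and 2. The dimmer probe set was thus lower in endoderm within each experiment and brighter in experiment 2 in both tissues, as the Crabp2 probe set was.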
